A study of Mus musculus with 33 samples.

Results

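A list of 9 genes that mark the resident macrophages of the liver, the Kupffer cells, was followed in mouse liver RNA: Clec4f, Timd4, Vsig4, Marco, Cd5l, Cd163, Folr2, Csf1r and Id3. The members are known marker genes, taken by exact gene name from the count table, which held 19169 genes. All 9 were in the table, and all 9 were among the 14934 genes that passed the filter on low counts. The study compared 4 groups of whole liver. The knock-in mice (KI) had a mutant Nlrp3 allele that tamoxifen switches on, written Nlrp3A350V/+CreT in the labels, and were set beside wild-type (WT) mice. Both genotypes ate control chow, labelled as given with placebo, or a diet with the ASK1 kinase inhibitor GS-444217 (ASK1i), described as selective, for 6 weeks. There were 10 WT control, 8 WT ASK1i, 5 KI control and 10 KI ASK1i libraries. The promoter that drives the Cre, the age of the mice, and whether WT mice received tamoxifen or carried the Cre were not stated in the labels. Nlrp3 encodes the sensor of an inflammasome, which matures interleukin-1 beta and can kill the cell by pyroptosis.

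Kupffer cells sit inside the liver sinusoids and clear bacteria, dying cells, old red cells and modified lipids from the blood. Most are seeded before birth and renew themselves locally, kept alive by the growth factors CSF1 and IL-34 through the receptor encoded by Csf1r. When resident cells are lost, monocytes can enter the niche and take up Kupffer genes in sequence, with Clec4f appearing early and Timd4, which encodes the phosphatidylserine receptor TIM-4, late. Clec4f encodes a lectin that in the mouse is found almost only on Kupffer cells, whereas Csf1r is carried by macrophages and monocytes in general. Vsig4 encodes a receptor for complement C3 fragments, and Marco encodes a scavenger receptor. Cd163 encodes the receptor for haemoglobin bound to haptoglobin, and Folr2 encodes a folate receptor. Cd5l encodes a secreted scavenger protein, and Id3 encodes an inhibitor of E-box binding transcription factors that also occurs in other cells of the liver.

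The stretch of 250 bases before the transcription start is shown for 4 members: Clec4f and Timd4, the markers closest to resident Kupffer cells, and Cd5l and Vsig4, whose values relative to Csf1r lay near 0. The sequences come from RefSeq on build GRCm38.p6, read 5′ to 3′ on the gene's strand, and end at the base before the start. Capitals mark GAGGAA, the core letters bound by the macrophage factor PU.1, and TGCTGA, a half-site letter string of MAF factors, on either strand (TTCCTC and TCAGCA on the other). Cd5l lies on the plus strand at chr3:87357631-87357880.
Cd5l: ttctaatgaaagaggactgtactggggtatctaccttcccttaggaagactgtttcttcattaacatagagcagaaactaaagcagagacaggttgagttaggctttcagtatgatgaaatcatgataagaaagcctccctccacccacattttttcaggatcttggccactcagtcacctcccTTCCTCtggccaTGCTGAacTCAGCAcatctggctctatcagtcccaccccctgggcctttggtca
Vsig4 lies on the minus strand at chrX:96293439-96293688.
Vsig4: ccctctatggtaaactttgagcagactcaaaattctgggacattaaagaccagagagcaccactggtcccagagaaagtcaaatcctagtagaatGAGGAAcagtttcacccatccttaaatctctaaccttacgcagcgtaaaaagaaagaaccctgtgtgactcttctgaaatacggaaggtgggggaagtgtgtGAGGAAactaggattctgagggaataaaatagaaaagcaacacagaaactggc
Clec4f lies on the minus strand at chr6:83656117-83656366.
Clec4f: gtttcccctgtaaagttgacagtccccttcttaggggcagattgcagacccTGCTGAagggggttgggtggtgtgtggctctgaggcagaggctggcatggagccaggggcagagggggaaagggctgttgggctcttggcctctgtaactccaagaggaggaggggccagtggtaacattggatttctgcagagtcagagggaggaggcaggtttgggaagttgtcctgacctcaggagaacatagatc
Timd4 lies on the plus strand at chr11:46810549-46810798.
Timd4: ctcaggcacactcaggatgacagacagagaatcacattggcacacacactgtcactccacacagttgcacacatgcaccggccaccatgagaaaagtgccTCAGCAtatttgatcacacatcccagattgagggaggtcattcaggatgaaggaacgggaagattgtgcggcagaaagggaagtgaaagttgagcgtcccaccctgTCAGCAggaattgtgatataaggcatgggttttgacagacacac
Vsig4 held GAGGAA at 155 and 53 bases before the start and no TGCTGA. Cd5l held GAGGAA at 66 bases and TGCTGA at 54 and 46 bases before the start. Clec4f held TGCTGA at 199 bases and Timd4 held it at 150 and 44 bases before the start, and neither held GAGGAA. These matches did not sort the members by their change relative to Csf1r: Id3, the lowest by that measure on control chow, held GAGGAA at 208 and 201 bases before the start, and Cd163, which did not pass that test there, held neither string. A window matching the start in the count table was found for 7 of the 9 members, which were these 4 and Id3, Folr2 and Cd163. GAGGAA was in 3 of these 7 windows and in 23.3% of 32851 promoter windows of the same length, and TGCTGA was in 4 of 7 and in 16.1%. The E-box letters CANNTG, which read the same way on both strands, were in 4 of 7 windows and in 66.2% of all windows. TGGGAA, the core of RBPJ sites, was in 1 of 7 (Clec4f) and in 21.6%, and TGANTCA, the AP-1 site, was in 1 of 7 (Folr2) and in 6.75%. A letter match describes the window and is not a binding site.

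Total counts per library ran from 28099676 to 40008118 over the 33 libraries. Nlrp3 itself was at 1.62 to 4.96 CPM, counts scaled to a common library size, in WT control and at 7.87 to 15.6 CPM in KI control, a level that does not show the allele. On the ASK1i diet it was at 2.38 to 3.88 CPM in WT and at 2.1 to 11 CPM in KI. The lowest value, below every WT ASK1i library, was that of KI ASK1i replicate 5, and the other 9 KI libraries lay at 5.51 CPM or above. The same library labelled KI ASK1i replicate 5 lay among the WT libraries on the first principal component of all genes (-59.2, against 54.9 to 103 for the other 9 KI ASK1i libraries), so fold changes of KI against WT on the ASK1i diet are given with and without it. Markers of other cells also moved between genotypes. The summed level of 8 neutrophil genes was 3.66 to 17.2 CPM in WT control and 664 to 3522 CPM in KI control, and that of 5 monocyte genes 7.72 to 19.1 and 140.3 to 478 CPM. The sum of 5 hepatocyte genes was 105000 to 131100 CPM in WT control and 30250 to 53390 CPM in KI control. Most of it was Alb, at means of 101556 and 30636 CPM, and Ttr and Cyp2e1 were also lower. Apoa1 and Serpina1a did not pass the test used below on control chow, with log2 fold changes of 0.08 and 0.16. On the ASK1i diet Serpina1a was higher, by 0.40. The sum of 7 sinusoidal endothelial genes overlapped, at 321 to 411 and 375 to 422 CPM, but its genes went both ways. Pecam1, Lyve1 and Stab2 were higher, with log2 fold changes of 0.92, 0.73 and 0.39, and Kdr was lower (-0.44). Clec4g, Oit3 and Fcgr2b did not pass. The 4 markers of cycling cells summed to 3.61 to 8.63 and 21.1 to 107 CPM. The sum of 4 peritoneal macrophage genes was 7.19 to 11.5 CPM in WT control and 19.3 to 26.3 CPM in KI control. Selp made up much of the rise, with means of 1.31 and 11.1 CPM, while Gata6 had means of 7.29 and 10.9 CPM. Garnl3 had means of 0.33 and 0.67 CPM and Alox15 of 0.11 and 0.50 CPM. The sum of 5 stellate cell genes was 173 to 280.2 and 149.7 to 226 CPM. Ecm1, its largest part, was lower (means of 123 and 74.5 CPM), Lrat was higher, and Reln, Des and Colec11 did not pass. The sum of 4 B cell genes was 3.69 to 23.9 and 1.73 to 6.08 CPM. For 3 T cell genes the sums were 1.81 to 2.92 and 2.51 to 4.42 CPM, and for 4 dendritic cell genes 3.44 to 6.38 and 3.45 to 5.72 CPM. Zbtb46, the largest part of the dendritic cell sum (means of 3.44 and 2.55 CPM), was lower, as was Ccr7 (-0.96). Flt3 was higher (1.17), and Xcr1 did not pass. None of these lists had a marker at 0 throughout a group, and the part that these shifts play in the results below was not tested. In whole liver, fewer or more cells of a type and less or more RNA per cell cannot be told apart.

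Per kilobase of transcript, Cd5l was the highest member and Timd4 the lowest in all 4 groups. In WT control the means were 115 CPM per kb ± 37.3 (SD, n = 10) for Cd5l, 69.8 ± 15.2 for Clec4f, 52.2 ± 15.7 for Vsig4 and 35.4 ± 9.92 for Id3. They were 32.8 ± 8.09 for Csf1r, 21.3 ± 12.7 for Marco, 16.8 ± 3.56 for Folr2, 9.49 ± 1.89 for Cd163 and 7.23 ± 2.13 for Timd4. The ranges of every pair of neighbours in this order overlapped. Cd5l, Clec4f and Vsig4 kept the top of the order in KI control, at 328, 161 and 151 CPM per kb. Csf1r and Marco, at 106 and 95.1 CPM per kb, then stood above Id3 at 42.4 CPM per kb.

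On control chow, the genes of the scavenger, complement, folate and growth factor receptors, with Clec4f and Cd5l, were higher in KI than in WT liver by 2.46-fold to 5.28-fold, Timd4 was 1.88-fold higher, and Id3 did not pass the test. In all, 8 of 9 members were higher at an adjusted p below 0.05 (edgeR's quasi-likelihood test, Benjamini-Hochberg over all genes), where 27.8% of all genes tested were higher and 56.7% changed in either direction. The median log2 fold change of the 9 members was 1.65, and that of all genes was -0.03. In 7 of 9 members every KI control library lay above every WT control library, which held for 16.3% of all genes.

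**Figure D1:**
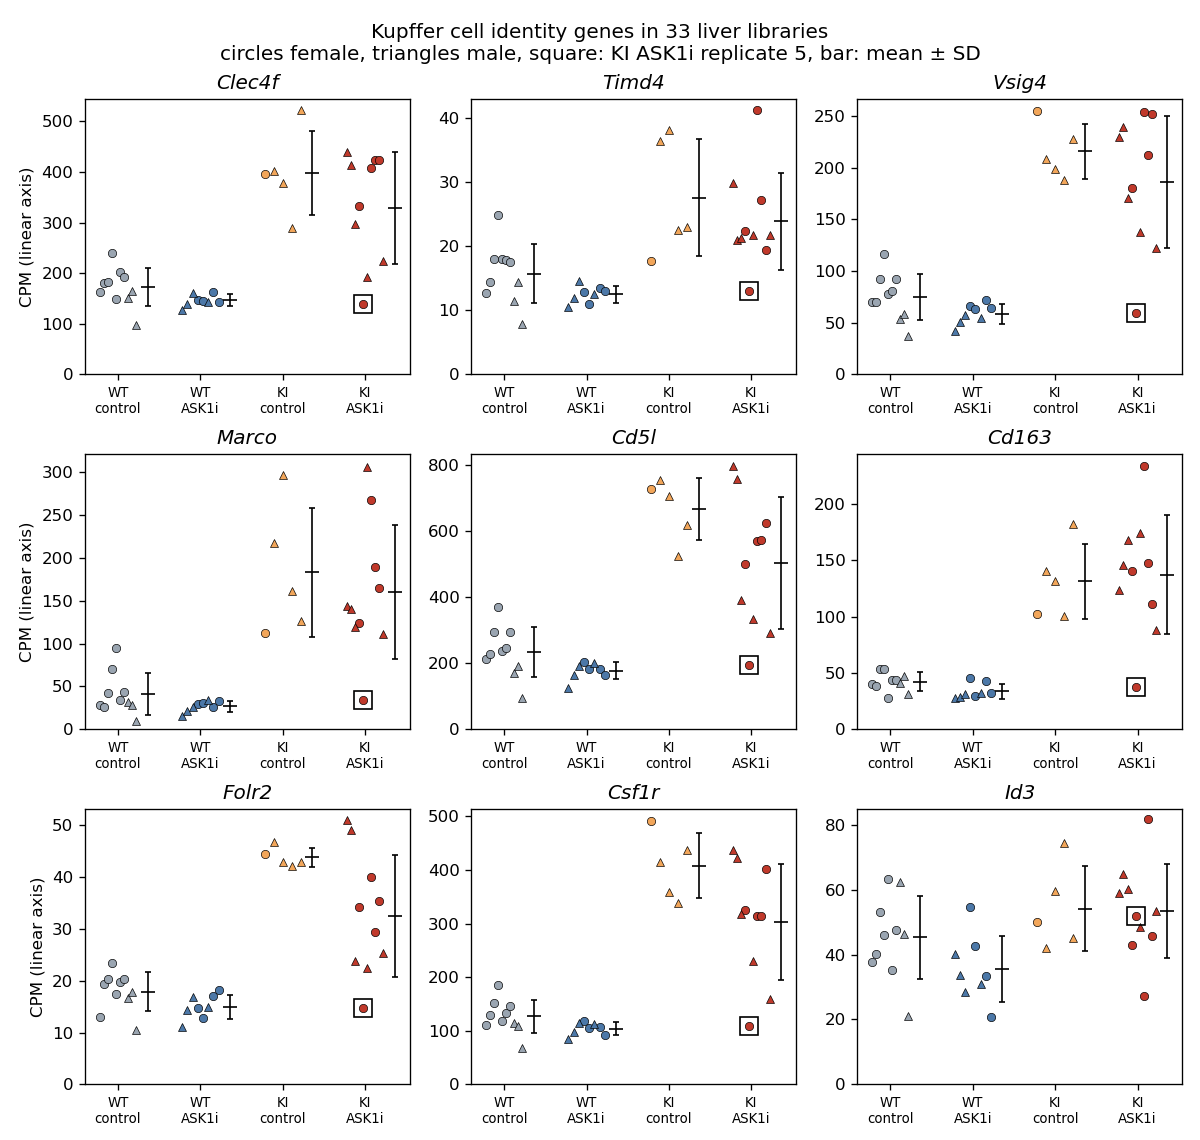
CPM of each member in 33 libraries on a linear axis starting at 0, by genotype and diet; circles are female and triangles male, the square marks KI ASK1i replicate 5, and the bar beside each group is the mean ± SD. For 7 members the KI control points do not overlap the WT control points, while Timd4 and Id3 overlap.

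Clec4f, the lectin gene closest to being private to Kupffer cells, was at 97.9 (lowest), 173 (median) and 239.8 CPM (highest) in 10 WT control libraries. In KI control replicates 1, 2, 3, 4 and 1P it was at 396, 402, 378, 289.8 and 523 CPM. All 5 were above all WT control values, and the log2 fold change was 1.30 (SE 0.21, adjusted p = 6.54e-06). Csf1r, the receptor of CSF1 and IL-34, was at 68.0, 124 and 186 CPM in WT control and at 492, 414, 359.7, 339 and 437 CPM in KI control. The groups did not overlap, and the log2 fold change was 1.80 (SE 0.22, adjusted p = 9.35e-08).

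Marco, the scavenger receptor, showed the largest fold change of the 9 and the widest spread. It was at 9.89, 32.7 and 94.7 CPM in WT control and at 113, 217, 297, 162 and 126 CPM in KI control. The groups did not overlap, although WT control replicate 5 came near the lowest KI library. The log2 fold change was 2.40 (SE 0.41, adjusted p = 1.38e-05). Cd163, the haemoglobin scavenger receptor, was at 28.0, 42.4 and 54.0 CPM in WT control and at 103, 140.5, 132, 100.7 and 182 CPM in KI control, with no overlap and a log2 fold change of 1.65 (SE 0.25). Cd5l, the secreted scavenger, was at 95.1, 234 and 371 CPM in WT control and at 729.9, 754, 708.7, 525.6 and 621 CPM in KI control, with no overlap and a log2 fold change of 1.69 (SE 0.25).

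Vsig4, the complement receptor, was at 37.1, 73.7 and 116 CPM in WT control and at 255, 208, 199, 188 and 228 CPM in KI control, with a log2 fold change of 1.75 (SE 0.22). Folr2, the folate receptor, was at 10.4, 18.6 and 23.5 CPM in WT control. It held to a narrow band in KI control, at 44.4, 46.8, 43.0, 42.1 and 42.8 CPM, with a coefficient of variation of 4.3% against 21.3% in WT control. Its log2 fold change was 1.34 (SE 0.21).

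Timd4, the TIM-4 gene, rose less than the genes above and was uneven among the KI libraries. It was at 7.88, 16.0 and 24.8 CPM in WT control and at 17.6, 36.4, 38.2, 22.6 and 23.1 CPM in KI control. Only replicates 2 and 3 lay above all WT control libraries, and the other 3 lay within the WT range. The log2 fold change was 0.91 (SE 0.23, adjusted p = 0.00124). With the L code of the titles, a code of unstated meaning, in place of the title set, it was 0.68 with an adjusted p of 0.0926, so the call was lost. KI control replicate 1, the only female of that group, had the lowest Timd4 value, so the change in females rests on 1 KI library and cannot be judged here.

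Id3 was at 21.1, 46.2 and 63.2 CPM in WT control and at 49.9, 42.0, 59.5, 74.4 and 45.0 CPM in KI control. Only replicate 4 lay above all WT control libraries. The log2 fold change was 0.27 (SE 0.22, 95% interval -0.16 to 0.70, adjusted p = 0.298), so no difference was shown, while the interval also holds a rise of 0.70.

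Leaving out each of the 33 libraries in turn left these calls as they were in all 33 fits. WT control replicate 2P, a male library, was the lowest of its group in 8 of 9 members. Libraries of WT control and of KI control share no L code, so within-code values could not be given for control chow.

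On the ASK1i diet all 9 members were higher in KI than in WT, where 30.3% of all genes tested were higher and 59.1% changed. The median log2 fold change of the members was 1.56, beside 0.01 for all genes. Marco was the only member whose groups did not overlap, which held for 2.36% of all genes. In 7 of the other members 9 of 10 KI libraries lay above every WT library, and KI ASK1i replicate 5 was the exception.

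Marco was at 15.1, 28.1 and 33.8 CPM in 8 WT ASK1i libraries and at 34.8, 142 and 306 CPM in 10 KI ASK1i libraries. The lowest was KI ASK1i replicate 5. The log2 fold change was 2.63 (SE 0.35, adjusted p = 3.11e-07), or 2.79 without that library. Cd163 was at 27.6, 31.8 and 45.7 CPM in WT ASK1i and at 37.3, 143 and 234 CPM in KI ASK1i. Its log2 fold change was 2.00 (SE 0.22), or 2.13 without replicate 5.

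Clec4f was at 126, 145 and 163 CPM in WT ASK1i and at 139, 370.0 and 439 CPM in KI ASK1i. Replicate 5, at 139 CPM, lay within the WT range, and replicates 6 and 4P followed at 192 and 224 CPM. The log2 fold change was 1.16 (SE 0.18), or 1.26 without replicate 5. Timd4 was at 10.4, 12.7 and 14.6 CPM in WT ASK1i and at 13.0, 21.7 and 41.3 CPM in KI ASK1i. The other 9 KI libraries lay at 19.4 CPM or above. Its log2 fold change was 0.94 (SE 0.19, adjusted p = 9.82e-05), or 1.03 without replicate 5. Here the L code fit kept the Timd4 call.

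Csf1r was at 84.9, 106 and 117 CPM in WT ASK1i and at 109, 317 and 438 CPM in KI ASK1i, with a log2 fold change of 1.58 (SE 0.19), or 1.70 without replicate 5. Vsig4 was at 41.6, 60.3 and 72.3 against 59.6, 197 and 253 CPM, with a log2 fold change of 1.69 (SE 0.20), or 1.82 without it. Cd5l was at 125, 183 and 206 against 194, 536 and 798 CPM, with a log2 fold change of 1.56 (SE 0.22), or 1.68 without it. Folr2, at 11.0, 14.8 and 18.1 against 14.7, 31.8 and 51.0 CPM, had a log2 fold change of 1.13 (SE 0.18), or 1.23 without it. These 4 genes thus rose by 2.18-fold to 3.22-fold, and replicate 5 was the lowest KI library in each.

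Id3 was at 20.6, 33.5 and 54.6 CPM in WT ASK1i and at 27.2, 52.7 and 81.7 CPM in KI ASK1i. Only 4 of 10 KI libraries lay above every WT library. The log2 fold change of 0.66 (SE 0.19, adjusted p = 0.00333) passed the test, and it was 0.68 without replicate 5. Replicate 5, which was the lowest KI ASK1i library in the other 8 members, was near the middle for Id3 at 51.9 CPM. The Id3 effects on the 2 diets were not shown to differ, since the interaction of genotype and diet was 0.38 (SE 0.29, adjusted p = 0.73).

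Within L code L1, with 4 KI and 2 WT libraries on the ASK1i diet, all 9 members were higher in KI, by 0.86 to 2.57 on the log2 scale. Within L7, with 1 KI and 2 WT libraries, all 9 were higher by 0.70 to 2.16. These within-code values carry no test.

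**Figure D2:**
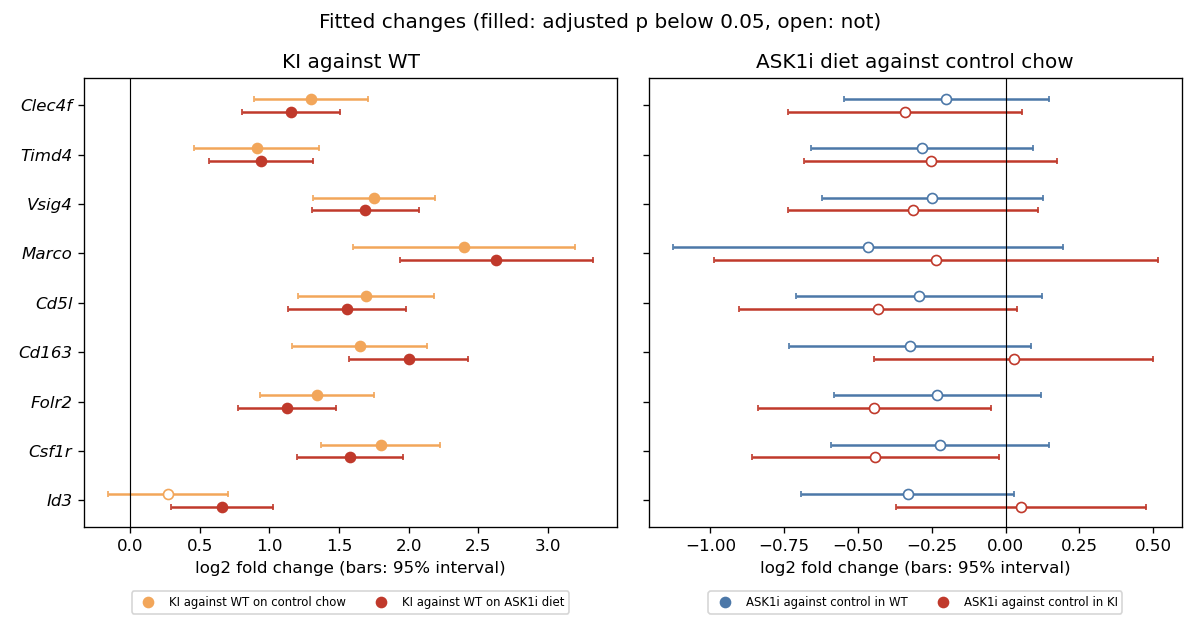
Log2 fold changes of the 9 members with bars of the 95% interval; the left panel gives KI against WT on each diet and the right panel the ASK1i diet against control chow in each genotype. Filled points passed an adjusted p of 0.05: 8 of 9 and 9 of 9 on the left, and 0 on the right.

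Because Csf1r rose with the other members, each was also counted against the Csf1r count of the same library. This asks whether a member moved by a different amount than a gene carried by macrophages in general. In KI control, Id3, Timd4, Clec4f and Folr2 were lower relative to Csf1r, and Vsig4, Cd5l, Cd163 and Marco did not pass the test in either direction. Over all genes tested, 84.9% were lower and 4.85% higher relative to Csf1r on control chow, so the 4 of 8 members that were lower are a smaller share than that of all genes.

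Timd4 stood at 10 to 15.2 counts per 100 Csf1r counts in WT control (median 11.9). In KI control replicates 1, 2, 3, 4 and 1P it stood at 3.58, 8.78, 10.6, 6.66 and 5.28. Only replicate 3 reached the WT range. The log2 change relative to Csf1r was -0.83 (SE 0.27, adjusted p = 0.00431), and it passed the test in all 33 fits that left out a library. Clec4f stood at 120 to 152 counts per 100 Csf1r counts in WT control (median 136) and at 80.5, 97, 105, 85.5 and 120 in KI control. Every KI library lay below every WT library, although replicate 1P came level with the lowest of them after rounding. Its log2 change was -0.49 (SE 0.20, adjusted p = 0.0232), and without KI control replicate 1 or 4 the call was lost (highest adjusted p = 0.0914).

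Id3 stood at 24.7 to 54.4 counts per 100 Csf1r counts in WT control and at 10.1, 10.2, 16.5, 21.9 and 10.3 in KI control, with no overlap and a log2 change of -1.47 (SE 0.34, adjusted p = 0.000125). Folr2 stood at 11.8 to 16.4 in WT control and at 9.03, 11.3, 12, 12.4 and 9.8 in KI control. Its log2 change of -0.42 (SE 0.20, adjusted p = 0.0489) lay at the threshold and was lost in 23 of 33 fits that left out a library. It was also lost with Cd68, another gene carried by macrophages in general, in place of Csf1r (-0.39, adjusted p = 0.0533), while Id3, Timd4 and Clec4f kept their calls.

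Vsig4 stood at 46.8 to 65.2 counts per 100 Csf1r counts in WT control and at 51.9, 50.3, 55.2, 55.6 and 52.1 in KI control, inside the WT range, with a log2 change of -0.04 (SE 0.19). Cd5l changed by -0.07 (SE 0.21) and Cd163 by -0.17 (SE 0.24). Marco was spread from 14.5 to 79.9 in WT control and stood at 22.9, 52.5, 82.6, 47.7 and 28.9 in KI control. Its log2 change of 0.63 (SE 0.38, adjusted p = 0.111) passed the test only when WT control replicate 5, KI control replicate 1 or KI ASK1i replicate 6 was left out.

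On the ASK1i diet 4 of 8 members were lower relative to Csf1r, where 83% of all genes were lower, and 2 of 8 were higher, where 5.47% of all genes were higher. The higher members were Marco, by 1.14 (SE 0.31, adjusted p = 0.000944), and Cd163, by 0.48 (SE 0.20, adjusted p = 0.0215). Marco ran from 17.8 to 35.8 counts per 100 Csf1r counts in WT ASK1i and from 31.8 to 133 in KI ASK1i. The 2 ranges overlapped between 31.8 and 35.8. The Cd163 call was lost without KI ASK1i replicate 6 or 1P (highest adjusted p = 0.0802). Without KI ASK1i replicate 5 the values were 1.23 for Marco and 0.51 for Cd163.

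The lower members on the ASK1i diet were Id3 by -0.68 (SE 0.26), Timd4 by -0.50 (SE 0.21), Folr2 by -0.40 (SE 0.16) and Clec4f by -0.39 (SE 0.16). Without KI ASK1i replicate 5 they were -0.96, -0.59, -0.46 and -0.43 in the same order, and these 6 members kept their calls. Vsig4 changed by 0.11 and Cd5l by -0.02, or by 0.14 and -0.03 without that library, and neither passed the test. Clec4f ran from 125 to 155 counts per 100 Csf1r counts in WT ASK1i and from 83.7 to 139 in KI ASK1i, and Timd4 from 10.4 to 14.1 and from 4.82 to 13.6. The Timd4, Clec4f and Folr2 calls were each lost without 1 library: KI ASK1i replicate 2, KI ASK1i replicate 6 and WT ASK1i replicate 2P in turn. With Cd68 in place of Csf1r, Marco, Cd163 and Id3 kept their calls on this diet. Timd4 (-0.38, adjusted p = 0.0661), Clec4f (-0.25, adjusted p = 0.14) and Folr2 (-0.27, adjusted p = 0.0967) did not pass.

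**Figure D3:**
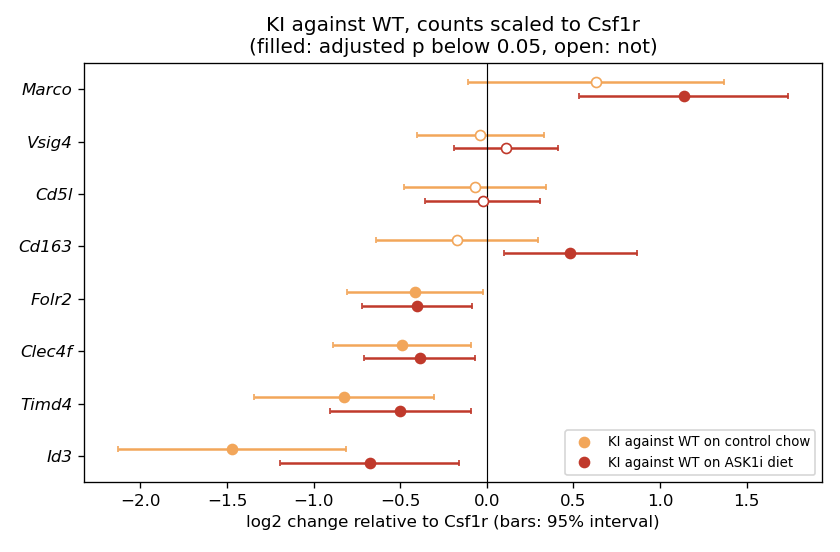
Log2 change of 8 members in KI against WT, counted relative to Csf1r in the same library, with bars of the 95% interval. Id3, Timd4, Clec4f and Folr2 lie below 0 on both diets, Vsig4 and Cd5l lie near 0, and Marco lies furthest above 0.

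The inhibitor comparisons ask whether blocking ASK1 moved these genes. In WT liver 0 of 9 members passed the test, where 1.4% of all genes did. At an unadjusted p below 0.05 the count was 0 as well, against 2079 of the 14934 genes tested (edgeR). DESeq2 and limma-voom each called 0 members. All 9 log2 changes were below 0, from -0.47 (Marco) to -0.20 (Clec4f, which was 0.0021 in males alone), with adjusted p from 0.432 to 0.666. The intervals reached from -1.13 to 0.19 for Marco and from -0.55 to 0.15 for Clec4f. All 8 WT ASK1i libraries lay below the WT control mean in 6 of the 9 members (Clec4f, Timd4, Vsig4, Marco, Cd5l and Csf1r), although every one of these genes had overlapping groups. The share of all genes with that pattern was not computed. These CPM are not adjusted for sex, and males were 3 of 10 in WT control and 4 of 8 in WT ASK1i. For Marco the WT control mean was 41.0 CPM, above its median of 32.7 CPM. The coefficient of variation in WT was lower on the ASK1i diet for 7 of the 9 (8.1% against 21.7% for Clec4f), equal for Cd163 at 19.9% and higher for Id3 (28.9% against 28%). In KI it was higher on the ASK1i diet for 8 of the 9 (33.7% against 20.9% for Clec4f and 36.1% against 4.3% for Folr2) and lower for Timd4 (31.6% against 33.2%). These differences in spread were not tested, and the share of all genes with such a difference was not computed. The KI ASK1i values include replicate 5, the lowest of its group in 8 of the 9 members, and were not computed without it. Within L6, with 4 libraries of each group, all 9 were lower on the ASK1i diet, by 0.30 to 0.93 on the log2 scale. That difference carries no test, and the sexes are uneven there, with 3 males of 4 on the ASK1i diet and 1 of 4 on control chow.

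In KI liver 0 of 9 members passed the test, where 0.0536% of all genes did. DESeq2 and limma-voom also called 0 members. With edgeR, 1539 of the 14934 genes tested had an unadjusted p below 0.05, among them 2 members. These were Folr2, which changed by -0.44 (SE 0.20, p = 0.0346, adjusted p = 0.463 with edgeR), and Csf1r, which changed by -0.44 (SE 0.21, p = 0.0468, adjusted p = 0.481 with edgeR). Folr2 was below the lowest KI control library in 8 of 10 KI ASK1i libraries and above the highest in the other 2. Csf1r was below the lowest in 7 of 10. Without replicate 5 the changes were -0.36 and -0.34. Clec4f changed by -0.34, Cd5l by -0.43, Vsig4 by -0.31, Timd4 by -0.25, Marco by -0.24, Cd163 by 0.03 and Id3 by 0.05. The interval for Clec4f, -0.74 to 0.06, holds both a fall of 0.74 and no change, so similar levels on the 2 diets were not shown.

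Relative to Csf1r, 0 of 8 members passed the test in either genotype under the inhibitor (edgeR), where 0.228% of all genes were higher and 0.0201% lower in WT, and 0% either way in KI. At an unadjusted p below 0.05 there were 0 in WT and 2 in KI (edgeR). The 2 were Cd163 (0.54, p = 0.0257, adjusted p = 0.0559) and Id3 (0.69, p = 0.0389, adjusted p = 0.0702). The share of all genes at that unadjusted level was not computed for this fit, so these 2 cannot be set apart from genes in general. The interaction of genotype and diet passed for 0 of 9 members, and for 0 by DESeq2 and limma-voom, where 0% of all genes passed with edgeR. At an unadjusted p below 0.05 there were 0 members, against 1251 of the 14934 genes tested (edgeR). The interaction values ran from -0.22 for Csf1r, which turned to 0.10 with the L code, to 0.38 for Id3.

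**Figure D4:**
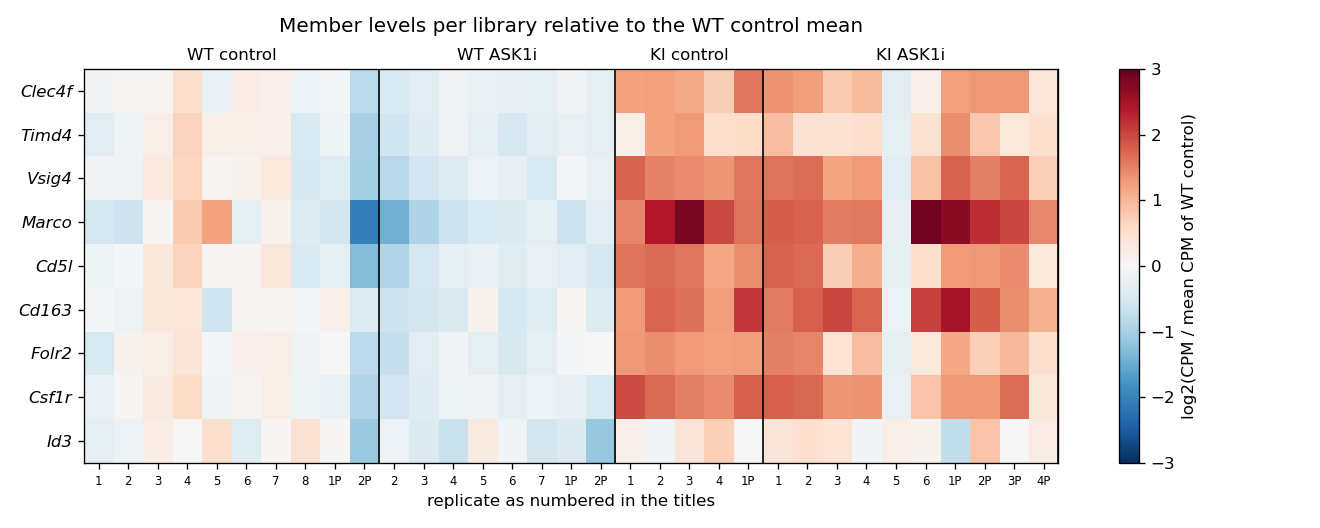
Each cell is the log2 ratio of a member's CPM in a library (columns, replicate as numbered in the titles) to the mean CPM of WT control, on a colour scale from -3 to 3. KI libraries are red or pale red in all rows but Id3, except KI ASK1i replicate 5, and WT control replicate 2P is the bluest column of its group.

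Sex entered the same model. Of the 9 members 0 passed for males against females, where 1.49% of all genes did, and 0 passed by DESeq2 and limma-voom. At an unadjusted p below 0.05 there was 1 member, beside 2093 of the 14934 genes tested (edgeR). The member was Vsig4, on the X chromosome, at -0.39 (SE 0.15, p = 0.0144, adjusted p = 0.219 with edgeR), and without KI ASK1i replicate 5, a female library, it was -0.49 with an adjusted p of 0.00531.

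Most of the other genes of resident liver macrophages also rose. The counts of the lists below are read beside the shares of all genes that were higher (27.8% on control chow, 30.3% on the ASK1i diet) or changed (56.7% and 59.1%). Of 24 measured genes of that list, such as those of the complement C1q chains, 23 (95.8%) were higher in KI on control chow and 1 was lower, with a median log2 fold change of 1.49. The counts were the same on the ASK1i diet, with a median of 1.40. Without KI ASK1i replicate 5 the counts of all 5 lists on that diet were the same. Msr1, a scavenger receptor gene, had a log2 fold change of 2.41 (SE 0.24) on control chow, Il18bp, which encodes a decoy for interleukin-18, 2.16 (SE 0.22), C1qb 2.07 (SE 0.23) and Pltp, a phospholipid transfer protein gene, 1.64 (SE 0.18). The 1 that was lower was Hpgd, which breaks down prostaglandins, at -0.79 (SE 0.21). It was named after its value was seen.

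Genes of transcription factors that shape macrophage and Kupffer identity were mixed. On control chow 8 of 17 were higher (47.1%) and 2 lower, with a median of 0.41, and the 58.8% that changed are near the 56.7% of all genes. Runx1 had a log2 fold change of 3.19 (SE 0.35), Tfec 2.04 (SE 0.21), Irf8 1.84 (SE 0.21) and Zeb2 1.27 (SE 0.14). The lower ones, named after their values were seen, were Rxra (-0.47) and Cebpa (-0.59), which hepatocytes also express. On the ASK1i diet 9 were higher and 3 lower.

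Among 18 ligands and receptors of the Kupffer niche, 10 were higher (55.6%) and 3 lower on each diet, with medians of 0.26 (control chow) and 0.23 (ASK1i diet). Csf2ra, a subunit of the GM-CSF receptor, had a log2 fold change of 2.31 (SE 0.24), Acvrl1, a receptor of BMP9 and BMP10, 1.81 (SE 0.22), Tgfb1 1.29 (SE 0.18) and Il34, a ligand of the Csf1r product, 1.16 (SE 0.21). The lower ones on control chow, named after their values were seen, were Bmp6 (-0.56), Bmp10 (-0.75) and Il6ra (-0.64).

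Among 9 genes listed as binding partners, cargo or related carriers of the members' products, 7 were higher on each diet (77.8%) and 0 lower. Csf1 and Il34 are also in the niche list. Hp, encoding the haptoglobin that carries haemoglobin to CD163, rose by 2.25 (SE 0.30) and C3, whose fragments VSIG4 binds, by 1.20 (SE 0.19). Hpx, encoding the haem carrier haemopexin, rose by 2.29 (SE 0.28), and Tyrobp, a signalling adaptor gene of myeloid cells, by 2.28 (SE 0.27).

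The list of monocyte-derived macrophage genes, which holds the 5 monocyte genes, had a higher median than the resident lists. On control chow 14 of 15 (93.3%) were higher and 0 lower, with a median of 4.17, and on the ASK1i diet 15 of 15, with a median of 4.21. Cd14, the co-receptor for lipopolysaccharide, was at 3.72, 8.06 and 11.4 CPM in WT control (lowest, median, highest) and at 197 to 378 CPM in KI control. Itgam, an integrin gene of myeloid cells, had a log2 fold change of 4.50 (SE 0.40), Clec4e 5.90 (SE 0.55) and Chil3 8.78 (SE 0.75), and Chil3 and Clec4e were below 1 CPM in every WT control library. The summed level of the 15 genes was 66.0 to 117 CPM in WT control and 787 to 948 CPM in KI control. In KI ASK1i replicate 5 it was the lowest of its group at 60.1 CPM. In each of these 5 lists the inhibitor comparisons called 0 genes in either genotype (edgeR). The 8 neutrophil genes also summed to 664 to 3522 CPM in KI control, against 3.66 to 17.2 CPM in WT control. How far neutrophils carry the RNA of this list, and how far monocyte-derived cells carry the members' RNA, was not tested.

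**Figure D5:**
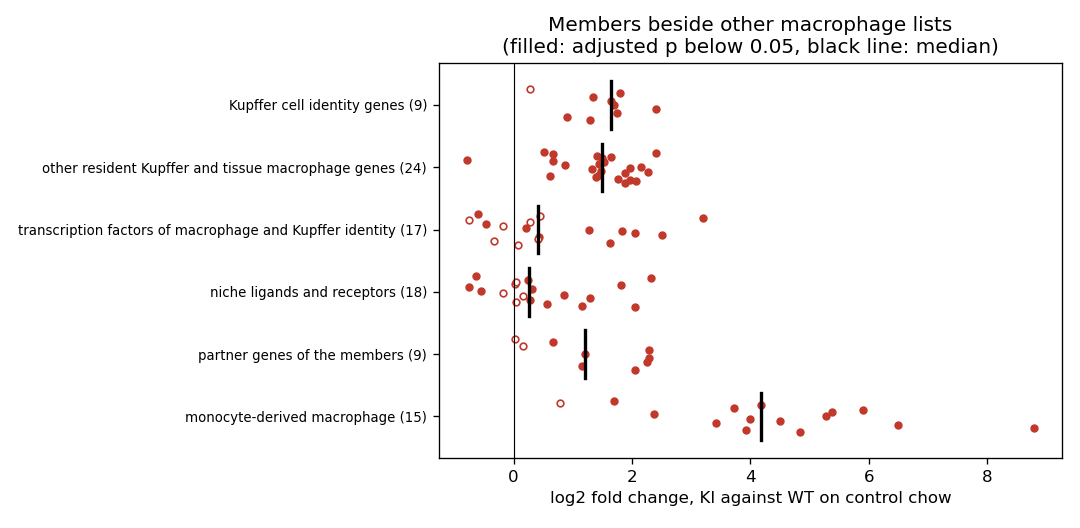
Log2 fold changes of KI against WT on control chow for the 9 members and for 5 other lists, with the number of genes measured in brackets; filled points passed an adjusted p of 0.05 and the black line is the median. The members' median of 1.65 lies near that of the other resident genes at 1.49 and below that of the monocyte-derived list at 4.17.

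Among the 18 WT libraries, where markers of neutrophils and monocytes were low, the genes most like 3 members were found by Spearman's rho of log2 CPM over 12051 genes. These libraries share the liver as a source and their depth, so the values are a description. Csf1r was most like C1qb (0.98), Cd5l (0.95), C1qa (0.94), Lrrc25 (0.93) and Itgb2 (0.93). Clec4f was most like Trim30b (0.92), Bcl2a1b (0.90), Ccl6 (0.89), Cybb (0.89) and Lpxn (0.89), and Timd4 was most like Emr4 (0.93), Clec12a (0.92), Folr2 (0.89), Cybb (0.87) and Zfp61 (0.87). Among the members, Cd5l had a rho of 0.85 with both Clec4f and Timd4. Id3 had the lowest rho with each of the 3, at 0.53 with Csf1r, 0.36 with Clec4f and 0.31 with Timd4.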

How the data were processed

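Polyadenylated RNA of 33 mouse liver libraries was sequenced with a stranded kit, per the labels' protocols. Per the submitters' processing notes, the authors used CASAVA 1.8.2, STAR 2.4 and RSEM 1.2.14 with build mm10; their settings and the annotation were not stated. The authors deposited unscaled expected counts from RSEM, whole in 91.4% to 93.7% of genes by library, which were rounded here. Group, sex and replicate come from the labels, which do not tie libraries to separate mice; a p-value therefore reflects the spread among libraries, which may be technical. In R 4.3.3, edgeR 4.0.16 (TMM, filterByExpr by group, quasi-likelihood F test, robust=TRUE) fitted group, sex and title set (numbered, or numbered with a P) to all 33 libraries. Tests are two-sided, adjusted by Benjamini-Hochberg over 14934 genes in each comparison (threshold 0.05). A gene rose, fell or was called only past that threshold. A prior count of 0.125 enters log2 fold changes, and intervals are normal 95% intervals from the SE. The relative fit used the log Csf1r count as offset in place of library size. CPM use TMM library sizes. CPM per kb divide by the longest GENCODE M21 transcript matched through the table's RefSeq identifiers. No 2 libraries of a group were a repeat (128 pairs, lowest chi-square per gene 23.6). The named genes were all members, up to 4 genes of each list with the smallest p on control chow, and the 5 genes most like Clec4f, Timd4 and Csf1r in WT; others are marked in the text. The members and lists were chosen with earlier results of these data known. The fits were tested on simulated data. Other settings tried were DESeq2 1.42.0, limma-voom (limma 3.58.1), RLE size factors, other count filters and covariates, a replicate block, subsets by sex and title set, each library left out, and Cd68 in place of Csf1r. Combinations without KI ASK1i replicate 5 and values within an L code were added after seeing the data.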

Additional observations from a re-analysis of the deposited data

How the results depend on the processing

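The members' calls in KI against WT held in most settings: 8 (control chow) and 9 (ASK1i diet) with RLE size factors, DESeq2, limma-voom, other count filters, male libraries or numbered titles alone, and each of 33 libraries left out. With the L code 7 and 9 were called (Timd4 lost on control chow), and with female libraries only 5 and 8, with Id3 (0.51) missed on the ASK1i diet. KI control holds 1 female library, so no female-only value that involves it bears on stability. Replicate numbers were not treated as pairs in the main fit. The 37 pairs with a shared number had a median correlation of deviations of 0.02, over 0.1 in 14. The 363 pairs with other numbers had a median of -0.0057, over 0.1 in 70. Pairing by number was neither shown nor excluded. With the replicate block 8 and 9 members were called, and it changed no call of a member. For all genes the block gave 133 calls in place of 209 for the inhibitor in WT, 0 in place of 8 in KI and 26 in place of 222 for sex.

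Leaving out a library gave 0 to 1 members called for sex (Vsig4 without KI ASK1i replicate 5). For the inhibitor in KI relative to Csf1r it gave 0 to 2 (Cd163 up to 0.63, Id3 up to 0.89). The libraries were KI control replicate 4 (Id3), KI ASK1i replicates 1 and 2 (both) and 3P (Cd163). With Cd68 in place of Csf1r, 3 members (not 6) were called on the ASK1i diet and 3 (not 4) on control chow. The share of all genes called was not computed for these Csf1r fits or with Cd68. Adgre1 was planned as denominator but not run, having no row in the count table.

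Directions turned only in values that had not passed the test. For the inhibitor in WT, Clec4f was 0.0021 in males. In KI, Timd4 was 0.079 with the L code, 0.15 in females and 0.43 in females without KI ASK1i replicate 5, and Marco 0.22 with the L code and 0.47 in females without that library. Cd163 was -0.065 with limma-voom, -0.060 with the L code, -0.022 in males and -0.083 to 0.14 with a library left out. Id3 was -0.016 with group alone, -0.012 with the replicate block, -0.058 in numbered titles, -0.049 in these without KI ASK1i replicate 5 and as low as -0.040 with a library left out. Relative to Csf1r, leaving out a library gave -0.073 to 0.011 for Vsig4 and -0.14 to 0.016 for Cd5l on control chow, -0.048 to 0.021 for Cd5l on the ASK1i diet, -0.073 to 0.024 for Folr2 in WT, and -0.15 to 0.545 for Marco, -0.090 to 0.056 for Cd5l and -0.077 to 0.077 for Folr2 in KI. With Cd68, Cd5l was 0.11 on the ASK1i diet and Clec4f -0.078 for the inhibitor in WT. For the interaction, Csf1r was 0.10 with the L code and 0.076 in numbered titles without KI ASK1i replicate 5. Over all settings and left-out libraries, 7 members turned direction at least once for the interaction (not Cd163 or Id3) and 8 for sex (not Vsig4), none of them called. The cause was not tested.

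Counts over all genes moved more. On control chow 8466 became 5103 with the L code, 3686 in females and 5341 in females without KI ASK1i replicate 5, and on the ASK1i diet 8819 became 5712 in females. For the inhibitor in WT 209 became 365 with DESeq2, 23 with the L code, 19 in numbered titles (39 without replicate 5), 8 in females (77 without it), 0 in males and 101 to 375 with a library left out (fewest without WT control replicate 1P, most without KI ASK1i replicate 5). In KI 8 became 37 with DESeq2, 4 with RLE size factors, 3 with group alone, 0 with the L code, numbered titles, females or males, and 0 to 14 with a library left out; without replicate 5 it was 2 with the block, 0 in numbered titles and 5 in females. For the interaction 0 became 16 with DESeq2, 2 with limma-voom, 7 in females without replicate 5 and up to 3 with a library left out. For sex 222 became 429 with DESeq2, 106 with the L code, 57 in numbered titles and 110 to 657 with a library left out, and without replicate 5 45 with the block and 65 in numbered titles.

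With 5 KI control libraries, of which 1 was female, and no L code shared by WT control and KI control, genotype and L code cannot be told apart on control chow beyond the fit that holds both. The least counted member, Timd4 in WT control replicate 2P, had 248 counts.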
